A study of Homo sapiens with 10 samples.

Results

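The results concern 10 genes of the cytosolic heat shock protein machinery, namely HSP90AA1, HSP90AB1, HSPA1A, HSPA1B, HSPA8, HSPA4, HSPH1, HSPB1, DNAJA1 and DNAJB1. They were chosen by symbol, through GENCODE release 29, among 94946 entries of a table of read counts, of which 45574 are GENCODE entries. All 10 were found and all 10 passed the filter on low counts. The RNA came from PC3, a line of human prostate cancer cells first grown from a metastasis to bone, kept in medium with 10% fetal bovine serum. Extracellular vesicles (EVs), membrane-bound particles that cells release, were pelleted at spins that the labels call 2.8K, 10K and 100K, with no unit. Each pellet (EV 2.8K, EV 10K, EV 100K) has 3 libraries, numbered as sets 1 to 3, and whole cells have 1 library. The labels name no treatment and no genetic change, and all libraries are of 1 cell line. Nothing in the labels says that the sets were separate cultures, so p-values measure the spread between these libraries, which may be technical.

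Cytosolic heat shock proteins keep other proteins folded. HSP70 proteins bind short unfolded stretches in a cycle driven by ATP, J-domain proteins deliver clients and start the ATP step, and HSP110 proteins such as HSPH1 and HSPA4 release the nucleotide. HSP90 proteins finish the folding of kinases and hormone receptors, among them the androgen receptor of prostate cells, and small heat shock proteins such as HSPB1 hold unfolded proteins without ATP. Some members are made at all times (HSP90AB1, HSPA8) and others rise strongly on stress under heat shock factor 1 (HSPA1A, HSPA1B, DNAJB1). HSPA8 and HSP90 proteins are common cargo of EVs. The data here are of their RNA, not of the proteins.

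Levels are CPM (counts relative to a library total of 1e+06), scaled by the TMM factors of edgeR over all 10 libraries, and group values are means ± SD with n = 3. A CPM is relative to the rest of the RNA in its library, so a lower level of an mRNA and a higher level of other RNA cannot be told apart, nor can fewer vesicles that hold it and fewer copies per vesicle. Total counts ran from 5424964 to 28735081 per library, with 5424964 to 8083438 in the EV 100K libraries. The lowest count of any of the 10 genes in any library was 37 (HSPA1B). The share of mitochondrially encoded RNA differed between the pellets, from 7.53 ± 4.63% of counts at the lowest spin (EV 2.8K) to 0.954 ± 0.114% at the next (EV 10K) and 0.00645 ± 0.00138% at the highest, against 2.88% in the cells. Leaving these genes out changed no call for any of the 10 genes. Of the epithelial and PC3 markers KRT8, KRT18, EPCAM and VIM, 3 of 4 also fell from EV 2.8K to EV 100K. Their summed level was 1851 to 2543 CPM for EV 2.8K, 1313 to 1643 CPM for EV 10K, 479 to 561 CPM for EV 100K and 1311 CPM for the cells, and their part in the results was not tested. The prostate genes KLK3 and KLK2 were at 0 in every library. The leukocyte markers PTPRC and CD3E, the blood markers HBA1, HBA2 and PPBP and the fibroblast markers DCN and LUM were also at 0 throughout. The summed leukocyte, blood and fibroblast lists reached at most 4.78, 3.89 and 43.4 CPM.

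The 10 mRNAs together made up 1.11% of all counts in the cells (95% Wilson interval 1.11 to 1.12%). The share of counts was 0.926 ± 0.0577% for EV 2.8K, 0.738 ± 0.0554% for EV 10K and 0.458 ± 0.0387% for EV 100K. The shares of the 3 pellets did not overlap, with 0.864 to 0.978%, 0.685 to 0.795% and 0.431 to 0.502%. No test was made over the summed genes. The genes differed in this. HSP90AB1, HSPA8, HSPA1A, HSPA1B and HSPB1 were each more than 3-fold below their EV 2.8K level at the 100K spin, HSPH1 was lower by a smaller step, and HSP90AA1, HSPA4, DNAJA1 and DNAJB1 did not pass the test.

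In the fit over all genes, 6 of the 10 genes fell between EV 2.8K and EV 100K while 0 rose, where 25.8% of all 15525 tested genes were called (13.8% lower and 12.0% higher, edgeR quasi-likelihood test, Benjamini-Hochberg adjusted p below 0.05). At an unadjusted p below 0.05, 1 gene was higher, DNAJA1, which DESeq2 also called. The median log2 fold change of the 10 genes was -1.36, against -0.06 for all genes tested. Between EV 100K and EV 10K, 5 genes were lower and 0 higher, at a background of 10.9% called (7.23% lower and 3.70% higher), with medians of -0.80 and 0.01. For that comparison 0 genes were higher at an unadjusted p below 0.05, and 0 with DESeq2. Between EV 10K and EV 2.8K, only HSPA1B was lower and 0 were higher, at a background of 6.38% called (2.22% lower and 4.15% higher), with medians of -0.27 and -0.01. There, 1 gene (DNAJA1) was higher at an unadjusted p below 0.05, and 0 with DESeq2. The 3 comparisons share libraries and are not independent of each other.

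**Figure D1:**
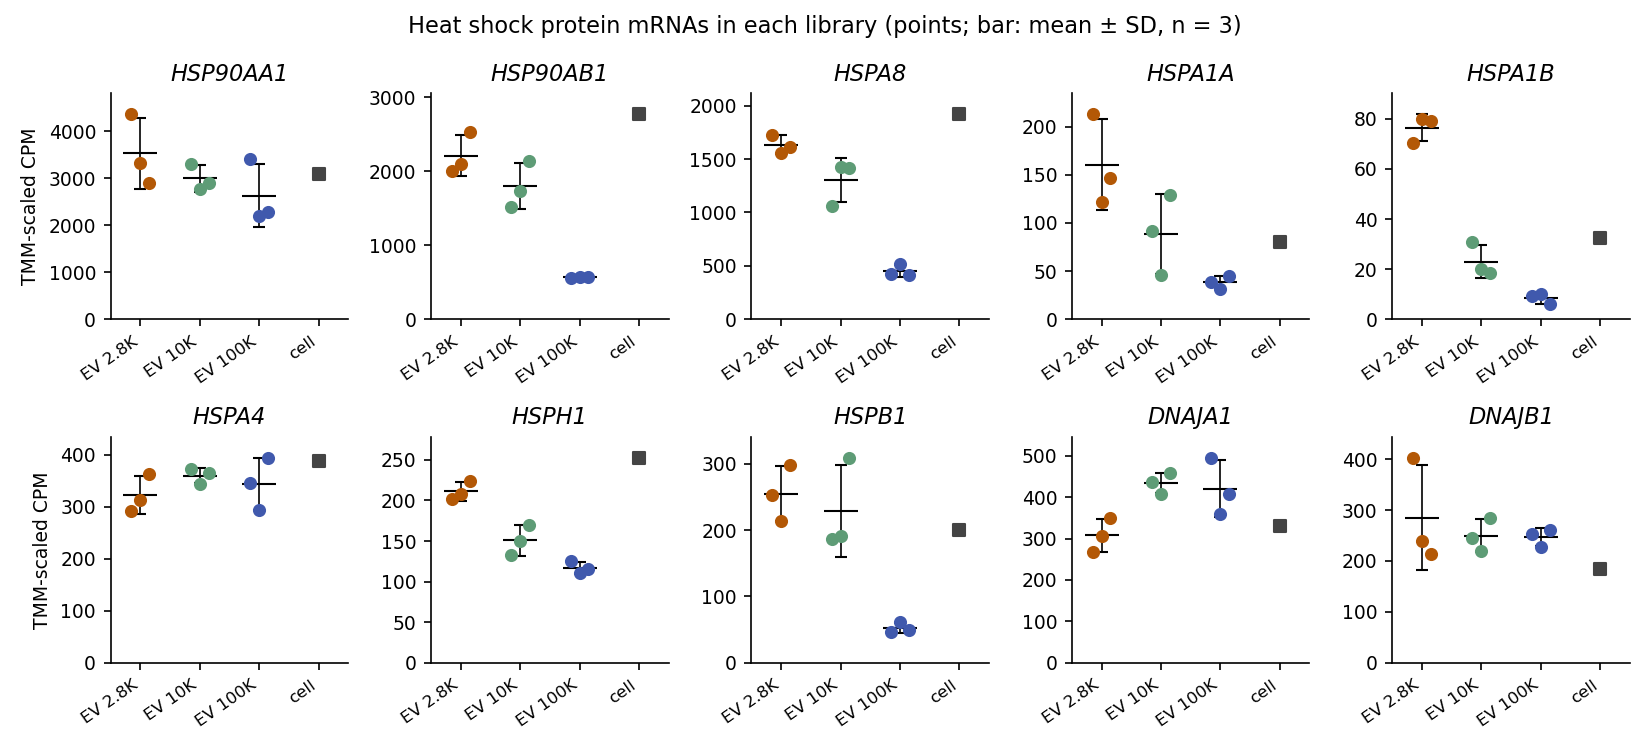
TMM-scaled CPM (vertical axes, linear, each from 0) of the 10 genes in each library, with points for the libraries, bars for mean ± SD (n = 3) and a square for the single cell library. The EV 100K points of HSP90AB1 (557 to 573 CPM), HSPA8, HSPA1A, HSPA1B, HSPB1 and HSPH1 lie below all points of EV 2.8K and EV 10K, while those of HSP90AA1, HSPA4 and DNAJB1 overlap with them.

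The cytosolic HSP90 proteins have 2 genes, the stress-inducible HSP90AA1 (ENSG00000080824.18, GRCh38 chr14:102080738-102139699, minus strand) and the constitutive HSP90AB1 (ENSG00000096384.19, chr6:44246166-44253888, plus strand). Their coding sequences in GENCODE were 75.22% identical over 2199 aligned positions, with no identical run longer than 23 bases. RefSeq promoter windows (GRCh38.p14) run from 250 bases before to 50 after each annotated start, and only the 250 bases before it were searched. Both strands were searched for a heat shock element of 3 alternating units, spelled GAA, NN, TTC, NN, GAA or TTC, NN, GAA, NN, TTC without gaps. This is the pattern that heat shock factors bind. All 10 genes were matched, with 15 windows, and the element was found in HSP90AA1, HSP90AB1 and HSPA8. It occurs in 155 of all 35116 windows (0.441%). The matches of the HSP90 genes are shown because both hold the element and their levels are set side by side next, with the 3 units and the bases between them in capitals.
HSP90AA1, chr14:102087112-102087140, minus strand, 88 to 76 bases before the start at 102087044: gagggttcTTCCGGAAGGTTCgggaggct
HSP90AB1, chr6:44247770-44247798, plus strand, 165 to 153 bases before the start at 44247943: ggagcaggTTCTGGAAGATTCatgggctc
HSP90AB1, chr6:44247823-44247851, plus strand, 112 to 100 bases before the same start: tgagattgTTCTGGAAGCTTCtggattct
A match is a description of letters and not a measured site, and the searched bases of the other 7 genes hold no match to this strict spelling.

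HSP90AA1 stayed at a high level in every pellet. Its levels were 4369, 3315 and 2910.2 CPM in EV 2.8K, 3311, 2782 and 2895 CPM in EV 10K, 3406, 2199 and 2278 CPM in EV 100K, and 3098 CPM in the cells. The 3 pellets overlapped, and the cells lay within their range. The means were 3531 ± 753, 2996 ± 279 and 2628 ± 675 CPM. The log2 fold change of EV 100K against EV 2.8K was -0.43 (SE 0.21, edgeR adjusted p = 0.143), and those of EV 10K against EV 2.8K and of EV 100K against EV 10K were -0.24 (SE 0.21, adjusted p = 0.605) and -0.20 (SE 0.21, adjusted p = 0.684). Without the set 1 library of EV 100K, the first of these passed (log2 fold change -0.66, adjusted p = 0.0331).

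HSP90AB1 was at 2004, 2098 and 2526 CPM in EV 2.8K, 1521, 1736 and 2138 CPM in EV 10K, and 557, 568 and 573 CPM in EV 100K, against 2773 CPM in the cells. The EV 100K libraries lay far below all others and close to each other (566 ± 8.13 CPM), while EV 2.8K and EV 10K overlapped. HSP90AB1 fell from EV 2.8K to EV 100K with a log2 fold change of -1.97 (SE 0.19, adjusted p = 5.19e-07). Against EV 10K it was lower by -1.68 (SE 0.19, adjusted p = 1.67e-05).

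The ratio of HSP90AA1 to HSP90AB1 counts within a library does not depend on how libraries are scaled. It was 2.18, 1.58 and 1.15 for EV 2.8K, 2.18, 1.60 and 1.35 for EV 10K, 6.11, 3.87 and 3.97 in EV 100K, and 1.12 for the cells. Every EV 100K library lay above every other library, and in each pellet the set 1 library was the highest. The geometric means were 1.58, 1.68 and 4.55, a log2 difference of 1.52 between EV 100K and EV 2.8K. An exact permutation test of the ratio for any difference among the pellets (1680 ways of placing 9 libraries in 3 pellets) gave p = 0.0286. After Benjamini-Hochberg adjustment over the 2 ratios tested it was 0.0571, which did not pass (the smallest unadjusted p the design allows is 0.00357). HSP90AA1 made up 53.4 ± 5.56% of the counts of the 10 genes in EV 100K, against 39.1 ± 5.60% for EV 2.8K, 39.4 ± 4.87% for EV 10K and 33.4% for the cells.

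**Figure D2:**
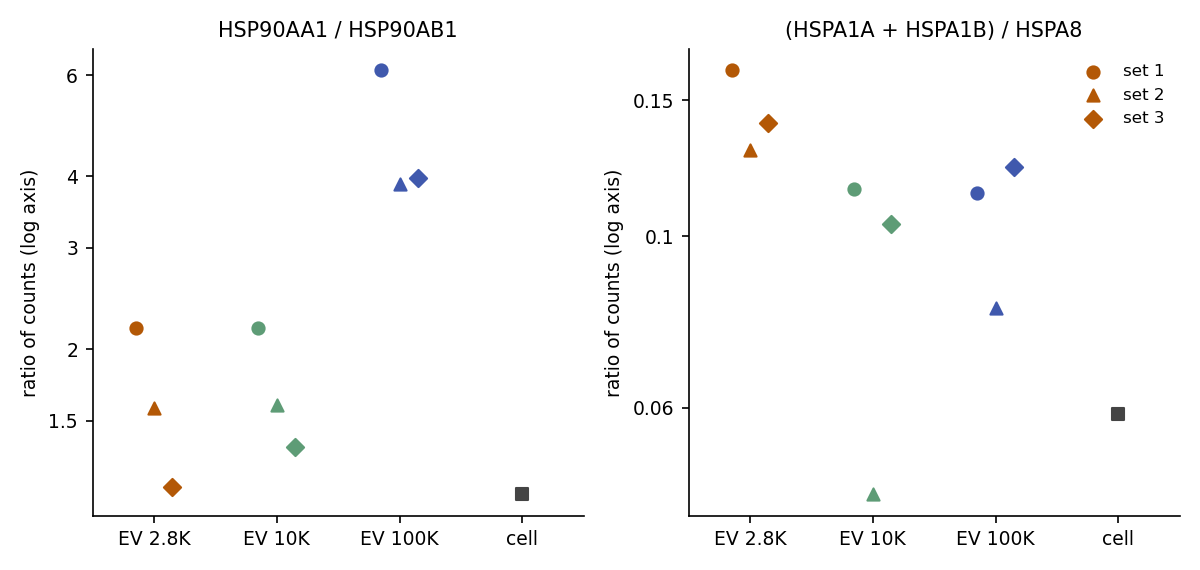
Ratios of counts within each library (vertical axes, log scale) for HSP90AA1 over HSP90AB1 and for HSPA1A plus HSPA1B over HSPA8, with 1 symbol per set number and a square for the cells. The HSP90 ratio is 3.87 to 6.11 in EV 100K and 1.15 to 2.18 in the other EV libraries, while in the HSP70 ratio EV 2.8K (0.129 to 0.164) lies above EV 10K and EV 100K, which overlap.

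Both HSP90 genes have processed copies whose reads could be shared with them, named here after their values were seen. HSP90AA2P is 97.14% identical to the coding sequence of HSP90AA1, with a longest identical run of 148 bases, and HSP90AB3P is 97.15% identical to that of HSP90AB1, with a run of 139 bases. HSP90AA2P was at 116 ± 16.1, 111 ± 5.01 and 83.5 ± 19.4 CPM in the pellets in order of spin, 2.94 to 4.18% of HSP90AA1. HSP90AB3P was at 54.5 ± 12.2, 65.5 ± 5.98 and 21.4 ± 5.20 CPM, 2.03 to 4.77% of HSP90AB1. The copies thus held a small part of the counts of either gene. HSP90AA1 also overlaps WDR20 on the other strand, which was at a mean of 28.1 CPM in EV 2.8K and 57.4 CPM in EV 100K, and whether the counting used the strand is unknown here.

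HSPA8 (ENSG00000109971.13, chr11:123057489-123063230, minus strand) encodes HSC70, the constitutive HSP70 that also uncoats clathrin-coated vesicles. Its promoter window holds 2 heat shock elements, shown beside those of the HSP90 genes with the same capitals.
HSPA8, chr11:123062346-123062374, minus strand, 230 to 218 bases before the start at 123062136: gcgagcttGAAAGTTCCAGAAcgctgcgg
HSPA8, chr11:123062171-123062199, minus strand, 55 to 43 bases before the same start: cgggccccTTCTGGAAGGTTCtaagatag
Its levels were 1729, 1557 and 1613 CPM in EV 2.8K, 1062, 1422 and 1420.0 CPM in EV 10K, 419, 515 and 414 CPM in EV 100K, and 1922 CPM in the cells. None of the 3 pellets overlapped with another. The fall from EV 2.8K to EV 100K was -1.87 in log2 (SE 0.19, adjusted p = 9.83e-07) and that from EV 10K to EV 100K was -1.54 (SE 0.19, adjusted p = 3.64e-05), whereas EV 10K against EV 2.8K gave -0.33 (SE 0.18, adjusted p = 0.339). The 17 annotated pseudogene entries of HSPA8 together held at most 0.628% of its level, and the snoRNA gene SNORD14E inside it was at 2.86 CPM or less in group means.

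HSPA1A (ENSG00000204389.9, chr6:31815464-31817946, plus strand) and HSPA1B (ENSG00000204388.6, chr6:31827735-31830255, plus strand) are neighbouring genes for the stress-inducible HSP70. Their coding sequences of 1926 bases agreed at 1922 positions (99.79%), with G1710T, G1860C, C1905T and A1920G as the only differences (the HSPA1A base, the position counted from 1 at the start codon, then the HSPA1B base) and an identical run of 1709 bases. A read that lies within this run is the same for both genes, so the split of counts between both genes is uncertain. The last 45 coding bases, positions 1882 to 1926, show how little separates them, with the 2 differing bases of this stretch in capitals.
HSPA1A: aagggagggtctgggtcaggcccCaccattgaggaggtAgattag
HSPA1B: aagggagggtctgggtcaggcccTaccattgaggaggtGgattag
Upstream, the 250 bases before the starts were 94.38% identical, and both hold TATAAA, the TATA box, which 10.7% of all windows hold in these 250 bases. It lies 30 to 25 bases before the start in HSPA1A and 29 to 24 in HSPA1B, and is in capitals here. Starts are those of RefSeq and differ from the GENCODE gene coordinates given above: the HSPA1A stretch lies within a GENCODE 29 exon of the gene, as do the elements of HSP90AA1 and HSPA8.
HSPA1A, chr6:31815501-31815530, plus strand: tccgtgacgactTATAAAagcccaggggca
HSPA1B, chr6:31827697-31827726, plus strand: tccacgacgactTATAAAagccgaggggcg

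HSPA1A was at 213, 121 and 147 CPM in EV 2.8K, 91.6, 45.9 and 129 CPM in EV 10K, 38.2, 31.7 and 45.0 CPM in EV 100K, and 80.6 CPM in the cells. EV 100K lay below the other pellets, and EV 2.8K and EV 10K overlapped. Its log2 fold change was -2.07 from EV 2.8K to EV 100K (SE 0.33, adjusted p = 0.000119) and -1.22 from EV 10K to EV 100K (SE 0.32, adjusted p = 0.0190). From EV 2.8K to EV 10K it was -0.85 (SE 0.32, adjusted p = 0.128), and it passed there with no filter on low counts (0.0407) and in the fit on all 10 libraries (0.0392). The difference between EV 100K and EV 10K missed the threshold when set 1 or 3 of EV 10K, or set 1 or 2 of EV 100K, was left out (adjusted p = 0.0537, 0.161, 0.0657 and 0.0804).

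HSPA1B was at 70.3, 80.1 and 79.2 CPM in EV 2.8K, 30.7, 20.0 and 18.4 CPM in EV 10K, 9.40, 9.90 and 5.88 CPM in EV 100K, and 32.5 CPM in the cells. It stepped down at each spin with no overlap between pellets, and its cell level lay just above the highest of EV 10K. The log2 fold change was -3.19 from EV 2.8K to EV 100K (SE 0.37, adjusted p = 4.24e-06), -1.73 from EV 2.8K to EV 10K (SE 0.34, adjusted p = 0.00429) and -1.46 from EV 10K to EV 100K (SE 0.35, adjusted p = 0.0102). The last of these missed the threshold without set 3 of EV 100K (adjusted p = 0.0809). A sum over both genes removes the question of the split, but not whether reads that match both were counted at all. The summed levels were 283, 201 and 226 CPM in EV 2.8K, 122, 65.9 and 147 CPM in EV 10K, and 47.5, 41.6 and 50.8 CPM in EV 100K. The pellets did not overlap in the sum, and the mean of EV 2.8K was 5.08-fold that of EV 100K.

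The inducible and the constitutive HSP70 mRNAs were also set against each other within libraries. Whether reads that match both HSPA1A and HSPA1B were counted is unknown, and the height of this ratio depends on it. The ratio of HSPA1A plus HSPA1B to HSPA8 counts was 0.164, 0.129 and 0.140 for EV 2.8K, 0.115, 0.0463 and 0.104 for EV 10K, 0.114, 0.0808 and 0.123 in EV 100K, and 0.0589 for the cells. EV 2.8K lay above both other pellets, which overlapped with each other, and the cells lay below all EV libraries but 1. The exact permutation test for any difference among the pellets gave p = 0.161 (0.161 after adjustment). Against EV 2.8K, the log2 differences were -0.47 for EV 100K and -0.81 for EV 10K, and neither was tested alone.

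HSPH1 (ENSG00000120694.19, chr13:31134974-31162388, minus strand) and HSPA4 (ENSG00000170606.14, chr5:133051962-133106449, plus strand) encode HSP110 proteins, which act as nucleotide exchange factors of HSP70, and they differed. HSPH1 was at 202, 208 and 224 CPM in EV 2.8K, 132, 150.1 and 169.9 CPM in EV 10K, and 125, 110.2 and 116 CPM in EV 100K, against 253 CPM in the cells. No pellets overlapped. Only the difference between EV 100K and EV 2.8K passed (log2 fold change -0.86, SE 0.20, adjusted p = 0.00296), and the steps from EV 2.8K to EV 10K and from EV 10K to EV 100K were -0.49 (adjusted p = 0.159) and -0.37 (adjusted p = 0.275). HSPA4 ranged from 291 to 394 CPM over the 9 EV libraries and was at 389 CPM in the cells, with a log2 fold change of 0.09 between EV 100K and EV 2.8K (SE 0.18, adjusted p = 0.804).

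HSPB1 (ENSG00000106211.8, chr7:76302544-76304295, plus strand) encodes HSP27, which also binds actin filaments. It was at 253, 214 and 298 CPM in EV 2.8K, 187, 191 and 309.6 CPM in EV 10K, 46.7, 61.8 and 48.9 CPM in EV 100K, and 200.1 CPM in the cells. EV 2.8K and EV 10K overlapped, and EV 100K lay below both. The log2 fold change was -2.29 against EV 2.8K (SE 0.25, adjusted p = 1.87e-06) and -2.14 against EV 10K (SE 0.24, adjusted p = 2.10e-05).

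The J-domain genes DNAJA1 (ENSG00000086061.15, chr9:33025211-33039907, plus strand) and DNAJB1 (ENSG00000132002.7, chr19:14514770-14529770, minus strand), which encode HSP40 partners of HSP70, were not called lower in any comparison. DNAJA1 was at 268, 306 and 349 CPM in EV 2.8K, 436, 408 and 458 CPM in EV 10K, and 496, 359.6 and 407 CPM in EV 100K, against 331 CPM in the cells. All EV 10K and EV 100K libraries lay above all EV 2.8K libraries. Its log2 fold change of 0.44 between EV 100K and EV 2.8K did not pass with edgeR (SE 0.19, adjusted p = 0.0933). It passed with DESeq2 (adjusted p = 0.0264) and without set 3 of EV 2.8K (adjusted p = 0.0471). Between EV 10K and EV 2.8K the log2 fold change was 0.50 (SE 0.19, adjusted p = 0.134). DNAJB1 was at 404, 239.6 and 213 CPM in EV 2.8K and ranged from 220.2 to 284 CPM over the other 6 EV libraries, with a log2 fold change of -0.21 between EV 100K and EV 2.8K (SE 0.23, adjusted p = 0.579). The set 1 library of EV 2.8K was the highest of all libraries for DNAJB1, HSP90AA1 and HSPA1A, 3 stress-inducible genes, but not for HSPA1B. HSPA1B was at 70.3 CPM there, against 80.1 and 79.2 CPM in the other EV 2.8K libraries. CDC37 (1382 CPM) and STIP1 (915 CPM), which are not among the 10 genes and are named for their values, were also highest in that library. Other genes went the other way and were lowest there among the EV 2.8K libraries. They include HSPH1 (202 CPM, against 208 and 224), FKBP4 (238 CPM, against 248 and 249) and PTGES3 (170 CPM, against 217 and 215). The same library had the largest share of mitochondrially encoded RNA (12.9%). Whether these go together was not tested. DNAJB1 overlaps TECR on the other strand, which was at a mean of 43.7 CPM in EV 2.8K and 7.82 CPM in EV 100K.

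**Figure D3:**
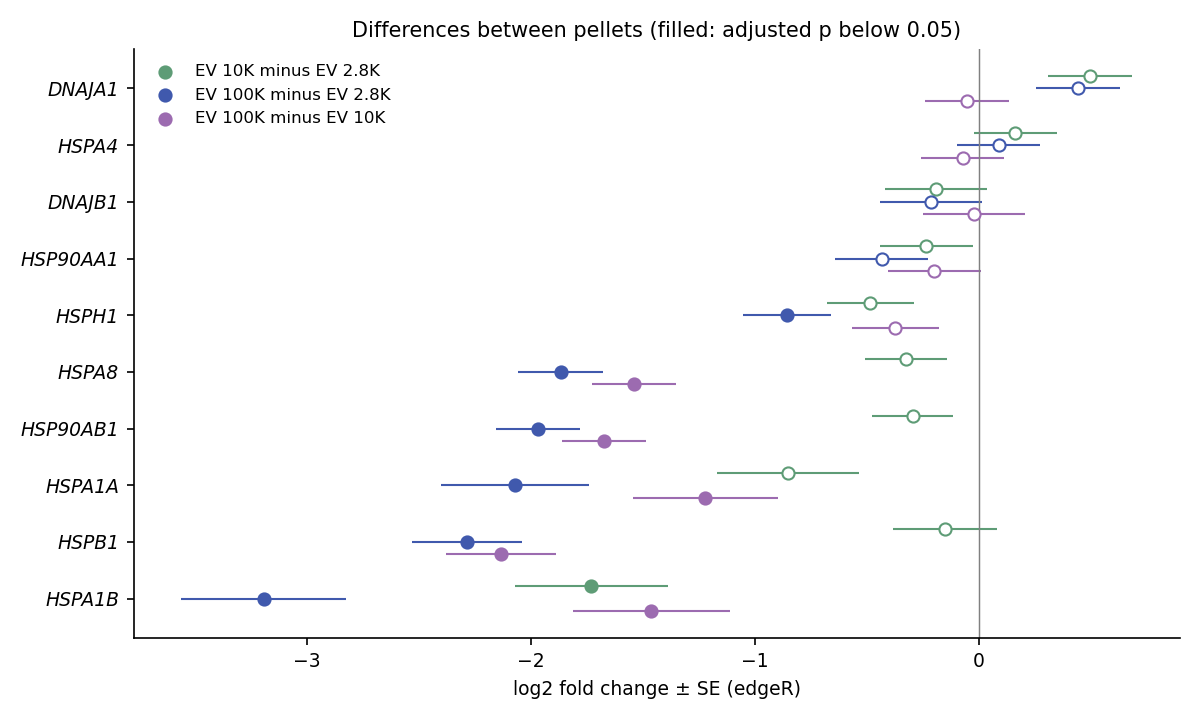
Log2 fold change ± SE (horizontal axis, edgeR) of each gene between pellets, in 3 colours for the 3 comparisons, with filled points for an adjusted p below 0.05. Filled points lie only on the negative side, from HSPH1 (-0.86) to HSPB1 (-2.29) and HSPA1B (-3.19) for EV 100K against EV 2.8K, and DNAJA1 lies farthest to the right.

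Per kilobase of merged exons, used to set genes beside each other, the order of the mRNAs changed between pellets. The order depends on the length used. Merged exons span 4849 bases in HSPA8, 5248 in HSP90AA1, 2980 in HSP90AB1 and 2730 in DNAJA1. The principal transcripts of these genes have 2463, 3379, 2674 and 2381 bases. By mean level over the length of the principal transcript, HSP90AA1 would come before HSP90AB1 in every pellet, though not in the cells. HSPA8 would come before DNAJA1 in EV 100K. The lead of HSP90AB1 in EV 2.8K and the place of DNAJA1 above HSPA8 in EV 100K thus hold for merged exons only. Other places by transcript length were not worked out. In the cells HSP90AB1 led with 930.5 CPM per kilobase, followed by HSP90AA1 (590.4), HSPA8 (396), HSPB1 (122) and DNAJA1 (121). EV 2.8K had the same leading 5, with HSP90AB1 (741 ± 93.3) and HSP90AA1 (673 ± 143) overlapping over libraries, then HSPA8 (337 ± 18.1), HSPB1 (156 ± 25.5) and DNAJA1 (113 ± 14.7). In EV 100K, HSP90AA1 came first (501 ± 129 CPM per kilobase), then HSP90AB1 (190.0 ± 2.73), DNAJA1 (154 ± 25.3) and HSPA8 (92.6 ± 11.7), which did not overlap with each other. After these came DNAJB1 (67.4 ± 4.71) and HSPA4 (66.8 ± 9.79), which overlapped, HSPB1 (32.1 ± 4.98), HSPA1A (15.4 ± 2.67), HSPH1 (14.0 ± 0.889) and HSPA1B (3.33 ± 0.869). HSPA1A and HSPH1 overlapped as well. The places of HSPA1A and HSPA1B are uncertain, since it is unknown how reads that match both were counted. By merged exons, DNAJA1 thus moved from place 5 in EV 2.8K to place 3 in EV 100K, and HSPB1 from place 4 to place 7. In EV 2.8K, DNAJA1 (98.3 to 128 CPM per kilobase) overlapped over libraries with DNAJB1 in place 6 (57.9 to 110 CPM per kilobase).

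Against the single cell library, EV 100K again stood apart from the other pellets. Between EV 100K and the cells, 6 genes were lower and 0 higher, where 10.0% of all 22370 tested genes were called (5.46% lower and 4.59% higher, edgeR over all 10 libraries, in which the cell library, having no replicate, is taken to vary as the EV libraries do). At an unadjusted p below 0.05, 0 genes were higher, and DESeq2 called 5 lower and 0 higher. HSP90AB1 was lower by -2.27 in log2 (SE 0.27, adjusted p = 2.18e-15), HSPA8 by -2.08 (SE 0.27, adjusted p = 1.81e-12) and HSPB1 by -1.91 (SE 0.32, adjusted p = 6.68e-08). HSPA1B was lower by -1.94 (SE 0.51, adjusted p = 0.00235), HSPH1 by -1.09 (SE 0.33, adjusted p = 0.0104) and HSPA1A by -1.05 (SE 0.37, adjusted p = 0.0430). The call of HSPA1A was lost with DESeq2 (adjusted p = 0.220), with DESeq2 size factors in edgeR (0.125), with GENCODE entries alone (0.146), and without set 1 or 3 of EV 10K (0.0755 and 0.0570) or set 1 or 2 of EV 100K (0.0969 and 0.188). HSP90AA1 (-0.22, adjusted p = 0.912), HSPA4 (-0.16, adjusted p = 1), DNAJA1 (0.36, adjusted p = 0.768) and DNAJB1 (0.45, adjusted p = 0.650) did not pass.

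Between EV 2.8K and the cells, 0 of the 10 genes passed, at a background of 2.23% called (1.54% higher and 0.693% lower). At an unadjusted p below 0.05, HSPA1A (log2 fold change 1.00, adjusted p = 0.287) and HSPA1B (1.24, adjusted p = 0.458) were higher, and DESeq2 called 0. Between EV 10K and the cells, 0 genes passed as well, at a background of 4.43% called (2.82% higher and 1.60% lower). There, HSP90AB1 (-0.61, adjusted p = 0.330) and HSPH1 (-0.73, adjusted p = 0.304) were lower at an unadjusted p below 0.05, and DESeq2 called 0.

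The annotated length of the 3' UTR, which the choice of genes did not use, separated the members that fell most from the others. The UTR of the principal transcript in GENCODE 29 is 122 bases long in HSPB1, 245 in HSPA8, 264 in HSPA1A, 285 in HSP90AB1 and 379 in HSPA1B, the 5 genes with log2 fold changes of -1.87 or lower between EV 100K and EV 2.8K. It is 974 bases long in HSP90AA1, 1004 in DNAJA1, 1170 in DNAJB1, 2013 in HSPA4 and 2269 in HSPH1, whose log2 fold changes ranged from -0.86 to 0.44. The 2 groups of 5 do not overlap in length. HSPH1, with the longest UTR of the 10, is the member with a long UTR that was called lower. Spearman's rho between UTR length and log2 fold change was 0.68 over the 10 genes, a description without a test, since these points come from the same 6 libraries and the length was looked at after the fold changes were known. Over the 11873 protein-coding genes tested with an annotated length (98.8% of those tested), rho was 0.26. The GC content of the transcript varies with it, from 47.0 to 64.5% in the 5 genes with a short UTR and from 40.0 to 53.1% in the others, with a rho of -0.75 over the 10 genes and -0.20 over all. For coding length rho was 0.22 over the 10 genes and 0.08 over all. For the length of the whole transcript it was 0.14 over the 10 genes but 0.25 over all, close to that of the UTR, and between EV 100K and EV 10K the whole transcript gave 0.35 over all genes and the UTR 0.29.

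The same direction was present in the table at large. Of 2630 protein-coding genes with a 3' UTR under 400 bases, 24.4% fell and 6.46% rose from EV 2.8K to EV 100K, with a median log2 fold change of -0.55. Of 3715 genes with a UTR of 2000 bases or more, 8.72% fell and 20.8% rose, with a median of 0.31. The median of genes from 400 to below 900 bases was -0.39, and of those from 900 to below 2000 bases -0.15. HSPB1, HSPA8, HSPA1A, HSP90AB1 and HSPA1B belong to the shortest length class, and each lay below its median by more than 1 on the log2 scale. Whether UTR length, GC content or transcript length plays a part in the falls was not tested. The length classes were chosen after the values were seen.

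**Figure D4:**
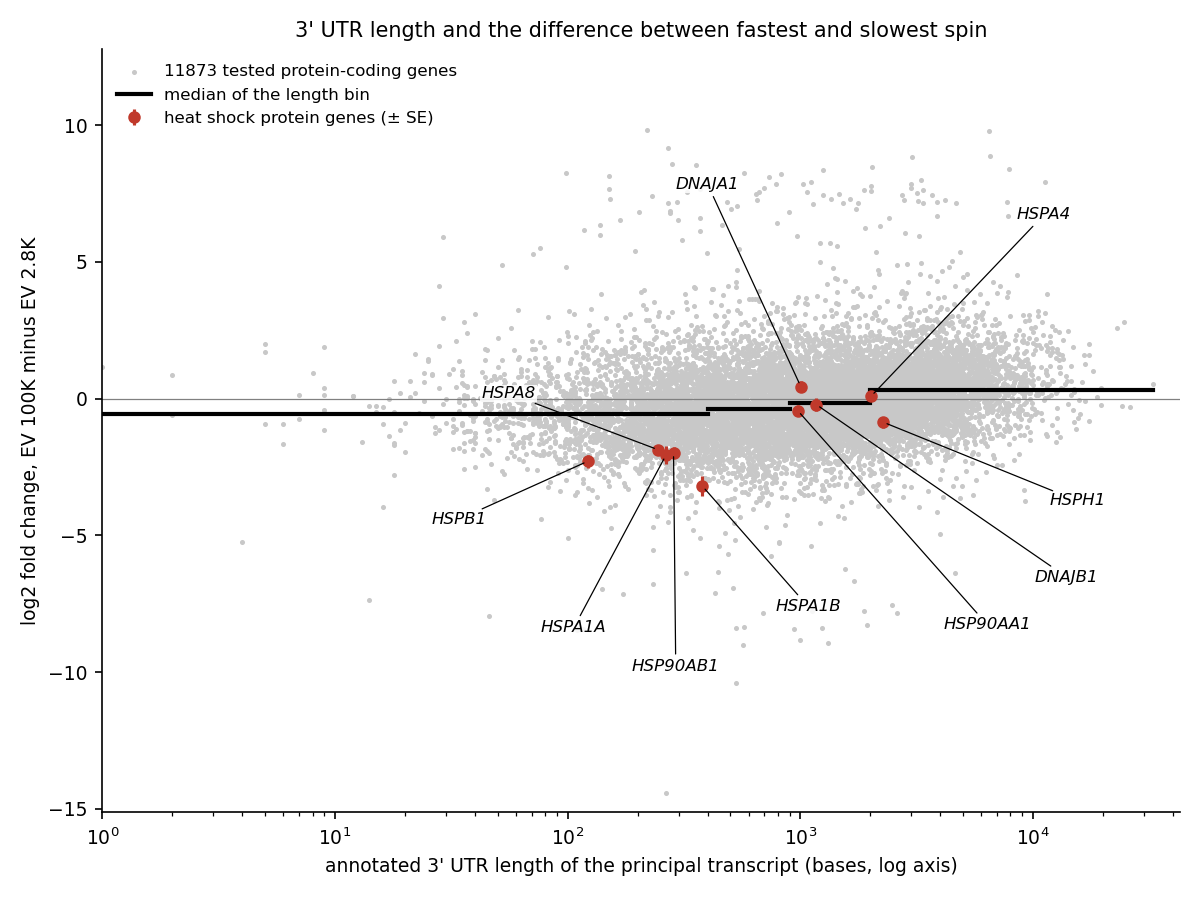
Log2 fold change of EV 100K against EV 2.8K (vertical axis) against annotated 3' UTR length in bases (horizontal axis, log scale) for 11873 protein-coding genes in grey, the 10 heat shock protein genes in red with SE, and black lines for the median of 4 length classes. HSPB1, HSPA8, HSPA1A, HSP90AB1 and HSPA1B lie at the short end and below the median of their class (-0.55), and the other 5 lie between -0.86 and 0.44.

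Genes that work with these proteins moved in both directions. Of 56 other genes of the cytosolic chaperone network, in lists chosen with earlier results of these data known, 49 were tested between the pellets. Between EV 100K and EV 2.8K, 7 were higher and 16 lower, with a median log2 fold change of -0.43, where 12.0% of all genes were higher and 13.8% lower. The count of higher genes is near that background. Between EV 100K and EV 10K, 2 were higher and 11 lower (background 3.70% and 7.23%). Between EV 10K and EV 2.8K, 1 was higher and 1 lower (background 4.15% and 2.22%).

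Of 16 HSP90 co-chaperone genes, 8 fell and 3 rose from EV 2.8K to EV 100K, where 13.8% of all genes fell and 12.0% rose. Among those with the smallest p were AHSA1, the activator of the HSP90 ATPase (log2 fold change -2.07, SE 0.22), STIP1, which links HSP70 to HSP90 (-2.14, SE 0.26), and the immunophilin gene FKBP4 (-1.53, SE 0.20). AHSA1 went from 164 ± 8.92 CPM to 39.3 ± 5.63 CPM. The 3 higher genes, chosen for naming by their values, were the cyclophilin gene PPID (1.48, SE 0.31, adjusted p = 0.00147), SUGT1 (1.17, SE 0.30, adjusted p = 0.00661) and CHORDC1 (0.79, SE 0.23, adjusted p = 0.0150). Between EV 2.8K and EV 10K, PPID also rose (1.31, adjusted p = 0.0146) and STIP1 fell (-0.87, adjusted p = 0.0431).

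Of 15 other J-domain genes, 3 rose and 3 fell from EV 2.8K to EV 100K, which for so few genes is near the background of 12.0% and 13.8%. DNAJC5, which encodes the cysteine string protein of secretory vesicles, was at 79.6, 84.3 and 84.6 CPM in EV 2.8K, 122, 119.6 and 130.1 CPM in EV 10K, 281, 306 and 417 CPM in EV 100K, and 99.2 CPM in the cells. The pellets did not overlap, and DNAJC5 was higher by 2.01 in log2 between EV 100K and EV 2.8K (SE 0.21). DNAJB2, whose product passes clients to the proteasome, was also higher (1.37, SE 0.30), while DNAJC8 (-1.57, SE 0.25) and DNAJC7 (-1.22, SE 0.27) were lower. Outside the rule for naming genes, DNAJC21 (0.90) was the other higher gene and DNAJC2 (-1.07) the other lower one.

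Of 8 HSP70 co-chaperone genes, 1 rose and 2 fell from EV 2.8K to EV 100K, near the background of 12.0% and 13.8%. BAG5 and HSPBP1 both encode nucleotide exchange factors of HSP70, and they moved apart, with BAG5 at 1.72 (SE 0.24, adjusted p = 2.59e-05) and HSPBP1 at -1.67 (SE 0.29, adjusted p = 0.000253). ST13, which encodes the HSP70-interacting protein Hip, was lower (-0.94, SE 0.26, adjusted p = 0.0102). Of the 4 heat shock factor genes, HSF1 was lower (-1.18, SE 0.21, adjusted p = 0.000425), as was HSBP1, whose product binds HSF1 (-1.44, SE 0.22, adjusted p = 7.74e-05). Of 5 other HSP70 and HSP110 genes, 1 passed, the HSPA4 relative HSPA4L (-1.66, SE 0.51, adjusted p = 0.0211).

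Over the 48 network genes with an annotated 3' UTR, the 16 lower ones had a median UTR of 417 bases, the 25 that did not pass 1136 bases and the 7 higher ones 3276 bases. The ranges overlapped widely, from 50 to 8319 bases for the lower and from 602 to 13074 bases for the higher genes. Spearman's rho between length and log2 fold change was 0.42.

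**Figure D5:**
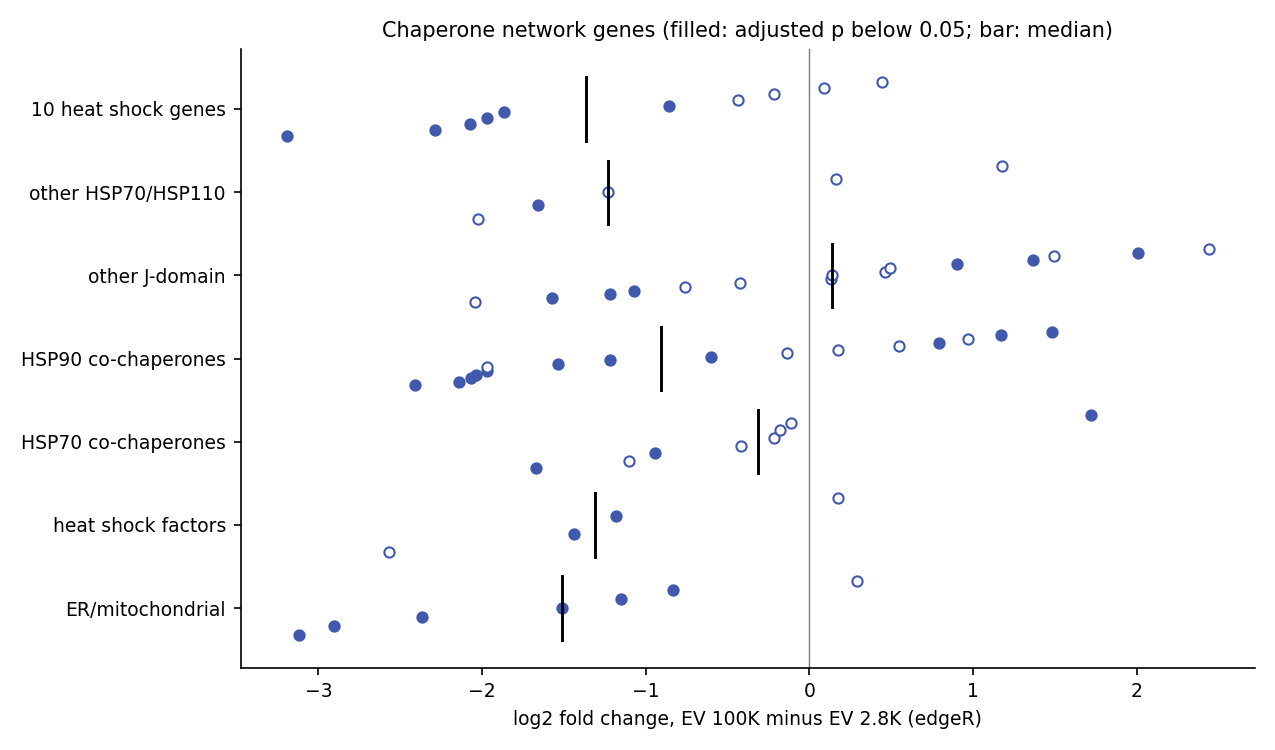
Log2 fold change of EV 100K against EV 2.8K (horizontal axis, edgeR) for the tested genes of each list, 1 point per gene, filled for an adjusted p below 0.05, with a bar at each list's median. The median of the 10 heat shock genes is -1.36, and filled points lie on both sides of 0 for the J-domain, HSP90 co-chaperone and HSP70 co-chaperone lists.

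The genes whose profile over the 9 EV libraries was most like that of a member were found among 8843 protein-coding genes with a mean of at least 10 CPM, by the root mean square difference of centred log2 CPM. HSP90AB1 was closest to AP2M1 (difference 0.14, Pearson's r = 0.99) and CHCHD2, and HSPA8 to TPI1 (0.12, r = 0.99), AP2M1 and CHCHD2, so that AP2M1 and CHCHD2 are in both lists. HSP90AA1 was closest to FIP1L1 (0.14, r = 0.88), SERBP1 and PSMD12, none of which is named for HSP90AB1. HSPA1A was closest to AHR (0.20, r = 0.98), RBM42 and SCARA3, HSPA1B to NFKBIA (0.31, r = 0.98), SERPINE2 and CDC20, and DNAJA1 to GRSF1 (0.09, r = 0.95), RPL36AL and PDCD6. HSPB1 was closest to PPP1CA (0.18, r = 0.99), UBL5 and PHLDA2, HSPH1 to NELFCD (0.12, r = 0.95), CANX and HNRNPU, HSPA4 to BAZ1A (0.11, r = 0.71), SDHA and KDM2A, and DNAJB1 to UBFD1 (0.13, r = 0.87), CDK5RAP2 and PAN3. These values are descriptions over libraries that share the same pellets.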

How the data were processed

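Total RNA of the EV pellets and cells was extracted with Trizol and made into libraries with a stranded SMARTer total RNA kit, per the labels' protocols. The authors deposited whole-number read counts per entry that were not normalized. Per the submitters' processing notes they used bcl2fastq 2.19.1.403, cutadapt 2.7, STAR 2.6.1d, featureCounts 1.6.3 and the build GRCh38. For the annotation, the strand setting and reads with several matches, the sources used here give nothing. Groups and set numbers come from the sample titles.

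The pellets were compared with edgeR 4.0.16 (R 4.3.3, limma 3.58.1) on the 9 EV libraries: genes kept by filterByExpr (minimum count 10), TMM, a robust quasi-likelihood fit and Benjamini-Hochberg adjustment over the 15525 genes kept, called below 0.05 (residual df 6, prior df 11.7). Comparisons with the cells used all 10 libraries and 22370 genes. Any 3 libraries against 3 allow no exact permutation p below 0.1, so the ratios were tested over 3 pellets at once. Alternatives were DESeq2 1.42.0 and its size factors, no filter, other sets of genes or libraries, a block for the set number, and leaving out each EV library. The script was tested on simulated counts.

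The labels do not say what a set number marks, and set numbers were not treated as pairs. The members and lists were chosen with earlier results of these data known. All members are named. Of another list, all genes that passed are named if 5 or fewer did, otherwise the 4 with the smallest p. Results for some genes that the rules name are not reported here. Likeness used log2(CPM + 0.5). Sequences are from RefSeq (GRCh38.p14) and GENCODE 29 transcripts, and proteins were not analysed here. Intervals cover counting error only, since reads are not independent molecules. Python 3.11.15, scipy 1.17.1, numpy 2.4.6, pandas 2.3.3 and matplotlib 3.10.9 were used.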

Additional observations from a re-analysis of the deposited data

How the results depend on the processing

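No gene of the 10 changed direction while past the threshold under any alternative. Of their results, 167 of 170 (EV 10K against EV 2.8K), 166 of 170 (EV 100K against EV 2.8K), 165 of 170 (EV 100K against EV 10K) and 143 of 150 (EV 100K against the cells) kept their side of the threshold, as did all 150 for each other pellet against the cells. Between EV 10K and EV 2.8K, HSPA1A joined HSPA1B, making 2 genes called, with no filter (edgeR adjusted p = 0.0407), with the set number as a replicate block (0.0372) and in the fit on all 10 libraries (0.0392). With the block, HSP90AA1 passed between EV 100K and EV 2.8K (0.0187), and no other member's call changed. Same-numbered libraries correlated at -0.00907 to 0.0481 over 9 pairs, and 8 of 9 libraries correlated best with their own number. Permuting the HSP90 ratio within sets, a form of block, gave an adjusted p of 0.0556 for any difference among the pellets. The log2 difference of EV 100K against EV 2.8K was 1.52 for this ratio and -0.47 for the HSP70 ratio. For the HSP70 ratio, permutation within sets gave an adjusted p of 0.0556, against 0.161 in the main permutation test. Permutation within sets allows far fewer arrangements than the main test, so its smallest possible p is higher and a pass is hard to reach.

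Counts of all genes called moved more. Fitting only the groups compared gave 561 (from 990) for EV 10K against EV 2.8K, 2777 (from 1697) for EV 100K against EV 10K, 171 (from 499) for EV 2.8K against the cells and 5295 (from 2247) for EV 100K against the cells. DESeq2 gave 1635 for EV 10K against EV 2.8K, and GENCODE entries alone gave 293 for EV 2.8K against the cells. Leaving out each EV library in turn gave 557 to 1173 for EV 10K against EV 2.8K (lowest without set 1 of EV 10K), and 357 to 752 for EV 2.8K against the cells (highest without set 3 of EV 2.8K). It gave 979 to 2549 for EV 100K against EV 10K (1033 without set 3 of EV 10K, 979 and 1017 without sets 1 and 3 of EV 100K) and 775 to 1522 for EV 10K against the cells, both highest without set 1 of EV 2.8K. The cause was not tested. With each EV library left out in turn, the HSP90 log2 difference between EV 100K and EV 2.8K was 1.29 to 1.75. The permutation test of the HSP90 ratio, which is over all pellets and not of this difference, passed in some of these settings. It passed without set 1 of EV 2.8K (adjusted p = 0.0286) and without set 3 of EV 10K (adjusted p = 0.0357, difference 1.52). The summed share was 1.00% in EV 2.8K and 1.15% in the cells without mitochondrially encoded genes, and, over GENCODE entries alone, 0.806% for EV 10K, 0.518% for EV 100K and 1.14% for the cells. The block and the fit on all 10 libraries moved the median of all genes between EV 100K and EV 2.8K to 0.12 and -0.11.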

Other observations

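The counterparts of these chaperones outside the cytosol fell at the 100K spin too. Of 7 genes for HSP70, HSP90, HSP110 and HSP60 proteins of the endoplasmic reticulum and mitochondria, EV 100K had 6 at a lower level than EV 2.8K, 5 lower than EV 10K and 6 lower than the cells, where 13.8%, 7.23% and 5.46% of all genes tested were lower. HSPA5, which encodes BiP of the endoplasmic reticulum, was at 1113, 1074 and 959 CPM in EV 2.8K, 271, 618 and 479 CPM in EV 10K, 104, 122 and 136 CPM in EV 100K and 566 CPM in the cells. None of the pellets overlapped, and the log2 fold change of EV 100K against EV 2.8K was -3.12 (SE 0.26, edgeR adjusted p = 1.05e-07). HSP90B1, the HSP90 of the endoplasmic reticulum, fell from 989 ± 122 CPM in EV 2.8K to 133 ± 7.35 CPM in EV 100K (-2.91, SE 0.20, adjusted p = 2.40e-08). TRAP1, the mitochondrial HSP90, was lower by -2.37 (SE 0.26), and HYOU1, the HSP110 of the endoplasmic reticulum, by -1.51 (SE 0.22). HSP90B1 (-1.20, adjusted p = 0.000576), HSPA5 (-1.20, adjusted p = 0.00474) and HYOU1 (-0.92, adjusted p = 0.0123) also passed as lower in EV 10K against EV 2.8K, where 1 of the 10 cytosolic genes did. Whether their changes differ from those of the cytosolic genes was not tested.

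HSPB1 was the small heat shock protein gene with counts in every library. Of 8 others, CRYAA, HSPB3, HSPB7, HSPB8 and HSPB9 were at 0 in all 10 libraries, and CRYAB, HSPB2 and HSPB6 did not exceed 5.68, 1.26 and 3.90 CPM. Against the cells, 50 network genes were tested. In EV 100K, 3 were higher and 8 lower (background 4.59% and 5.46%), with a median log2 fold change of -0.43. The higher ones were DNAJC5 (1.77, adjusted p = 0.000102), DNAJC21 (1.42, adjusted p = 0.00177) and BAG5 (1.23, adjusted p = 0.0254). In EV 10K, 1 was higher and 0 lower (background 2.82% and 1.60%). It was STUB1, which encodes the ubiquitin ligase CHIP (1.20, adjusted p = 0.0185). Both counts of higher genes are near their background.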
